A study of Mus musculus with 4 samples.

Results

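Later-intron peaks are the ATAC-seq peaks that the authors' annotation placed in an intron other than intron 1 of a RefSeq transcript. They were defined by that annotation, with earlier results of these data known, and numbered 25960 of the 120839 peaks called in 4 mouse skeletal muscles. ATAC-seq maps open chromatin by letting a transposase cut accessible DNA. Fast glycolytic fibres prevail in the extensor digitorum longus (EDL) and the quadriceps (Quad), and oxidative fibres in the soleus (Sol) and the diaphragm (Dia). All 4 muscles came from wild type C57BL/6 mice, and the labels name no treatment for any of them. Frozen muscle was powdered whole, so that all its cell types contributed. The study's methods describe its purchased animals as male C57BL/6J, and the age at tissue collection of these samples is not given in the sources used here. Each muscle had 1 library, described as pooled, so muscles were compared without replicates and without p-values between them. How many animals entered a pool is not given in the sources used here. Intervals are 95% intervals that cover counting error only, and peaks of 1 library are not replicates of a muscle.

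Introns are removed from the transcript, but their DNA can hold enhancers, insulators and internal start sites. Intron 1 lies next to the promoter and is known to be rich in regulatory elements, whereas later introns can lie far from the gene's own start. In muscle, enhancers are bound by MEF2 and by MyoD-family proteins, which recognise E-boxes, together with widely used factors such as AP-1.

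The regions that the later sections return to are shown with their sequences, because they are the most strongly scored examples of each pattern of sharing between muscles. Capitals mark letters that match one of 8 motifs, sequences are written 5′ to 3′ on the strand of the host gene, and coordinates are mm10 (GRCm38.p6 RefSeq). The motifs were MEF2 and CTCF by their consensus, AP-1 (TGANTCA), the E-box (CAGCTG, the same on both strands), NFAT (TGGAAA), NR, a motif of nuclear receptors (AAGGTCA), TEAD (GGAATG) and the GC-box (GGGCGG). Each was searched on both strands, and a match describes letters, not binding. Of the regions with a peak in exactly EDL and Quad, and with no peak of Sol or Dia within 1 kb, the 3 with the highest mean score percentile lay in Ttn (chr2:76807422-76807630, minus strand), Gpt2 (chr8:85515427-85515635, plus strand) and Zbtb16 (chr9:48740291-48740501, minus strand).
Ttn: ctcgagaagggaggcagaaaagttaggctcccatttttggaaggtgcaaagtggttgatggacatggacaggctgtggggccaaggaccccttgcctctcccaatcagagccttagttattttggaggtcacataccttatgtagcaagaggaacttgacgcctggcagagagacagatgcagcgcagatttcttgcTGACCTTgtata
Gpt2: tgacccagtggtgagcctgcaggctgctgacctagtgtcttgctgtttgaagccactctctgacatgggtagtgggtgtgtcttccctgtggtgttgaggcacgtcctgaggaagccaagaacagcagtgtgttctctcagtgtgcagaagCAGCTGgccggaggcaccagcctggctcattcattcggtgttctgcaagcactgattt
Zbtb16: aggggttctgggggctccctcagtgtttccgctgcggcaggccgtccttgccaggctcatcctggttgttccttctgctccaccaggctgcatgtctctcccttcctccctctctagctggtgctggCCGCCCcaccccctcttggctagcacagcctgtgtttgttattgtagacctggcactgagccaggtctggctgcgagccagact
Among regions with a peak in exactly Sol and Dia, the corresponding 3 lay in Elmod3 (chr6:72570612-72570869, minus strand), Ift122 (chr6:115905557-115905804, plus strand) and Ttc7 (chr17:87317999-87318256, plus strand).
Elmod3: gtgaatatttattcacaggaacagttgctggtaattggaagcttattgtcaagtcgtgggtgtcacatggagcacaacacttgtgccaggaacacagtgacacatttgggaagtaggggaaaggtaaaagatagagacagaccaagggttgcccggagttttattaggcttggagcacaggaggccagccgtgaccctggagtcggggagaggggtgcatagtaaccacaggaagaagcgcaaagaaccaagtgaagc
Ift122: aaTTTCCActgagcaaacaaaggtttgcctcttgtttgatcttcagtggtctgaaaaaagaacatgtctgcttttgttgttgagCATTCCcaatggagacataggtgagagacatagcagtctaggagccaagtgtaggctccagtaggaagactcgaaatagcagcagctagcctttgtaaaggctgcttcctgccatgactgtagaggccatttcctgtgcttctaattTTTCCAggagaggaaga
Ttc7: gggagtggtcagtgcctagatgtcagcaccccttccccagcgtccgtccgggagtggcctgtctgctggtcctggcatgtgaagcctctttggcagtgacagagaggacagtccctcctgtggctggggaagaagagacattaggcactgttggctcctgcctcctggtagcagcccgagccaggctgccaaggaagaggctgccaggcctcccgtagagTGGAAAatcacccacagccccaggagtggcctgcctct
Of the regions with a peak in all 4 lists, the 3 with the highest mean percentile lay in Chl1 (chr6:103649057-103649289, plus strand), Phf19, whose region exceeded 300 bases and is not shown, and Ssc4d (chr5:135962538-135962818, minus strand). An Hdac5 region (chr11:102218778-102219057, minus strand) was added after its values were seen, as the region open in all 4 lists with the highest mean percentile whose central 200 bases held both MEF2 and E-box letters.
Chl1: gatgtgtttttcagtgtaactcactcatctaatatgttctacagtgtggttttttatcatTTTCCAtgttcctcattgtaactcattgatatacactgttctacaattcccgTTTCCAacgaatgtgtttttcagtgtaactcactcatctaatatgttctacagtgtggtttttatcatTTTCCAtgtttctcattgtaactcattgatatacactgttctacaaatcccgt
Ssc4d: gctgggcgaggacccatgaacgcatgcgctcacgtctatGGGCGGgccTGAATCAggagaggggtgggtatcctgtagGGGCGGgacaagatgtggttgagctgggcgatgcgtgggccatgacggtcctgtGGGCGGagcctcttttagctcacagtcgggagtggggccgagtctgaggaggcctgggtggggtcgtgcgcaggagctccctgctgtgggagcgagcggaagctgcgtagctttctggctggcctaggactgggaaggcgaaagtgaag
Hdac5: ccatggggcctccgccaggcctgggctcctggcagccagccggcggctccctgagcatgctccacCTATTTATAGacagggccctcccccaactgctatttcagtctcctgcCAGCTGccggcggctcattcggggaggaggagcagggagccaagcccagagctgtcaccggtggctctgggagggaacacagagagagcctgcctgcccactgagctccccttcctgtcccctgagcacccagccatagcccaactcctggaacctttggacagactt

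Later-intron peaks made up between 16.5% and 24.0% of each list, with the highest share in Quad and the lowest in Dia. In EDL 6632 of 30136 peaks were in later introns, which is 22% (Wilson interval 21.5% to 22.5%). The Quad list held 9688 of 40337 peaks, or 24.0% (23.6% to 24.4%). In Sol the count was 6075 of 28784, or 21.1% (20.6% to 21.6%), and in Dia it was 3565 of 21582, or 16.5% (16% to 17%). The order of the muscles depended on list length. With each list cut to its 20000 strongest peaks, later introns held 17.9% for EDL, 17.1% for Quad, 17.7% for Sol and 15.6% for Dia, so that EDL, not Quad, came first and Dia was again last. The depth inferred from the steps of the score, if scores are scaled as HOMER does by default, was lowest in Quad at 78.1 M tags and lay between 99.3 and 104.6 M tags in the other muscles. Its part in the shares was not tested.

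The label held up against the reference. In each list 99.0% of peak centres fell in an intron of the named RefSeq transcript, and 99.0% to 99.2% of those fell in the intron of the stated number. Noncoding transcripts hosted 6.48% to 7.21% of them. The gene with the nearest start site was another gene than the host for 38.9% to 39.9% of later-intron peaks, so genes are given here by host. A share of 5.27% to 5.94% lay within 1 kb of a RefSeq start site or in intron 1 of another RefSeq transcript. Promoter peaks at marker genes were used to check the tissue. EDL had one at 6 of 6 myofibre markers, Quad and Sol at 5 of 6 each, and Dia at 4 of 6. Of 5 endothelial markers, EDL and Quad had one at 4 each, Sol at 5 and Dia at 2. Fibroblast markers had 1, 1, 1 and 0 of 5 in EDL, Quad, Sol and Dia, smooth muscle markers 1, 3, 0 and 1 of 5, and leukocyte markers 0 of 5 in each list. The part of cell composition in the results was not tested.

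Most later-intron peaks were weak within their own list. The score is a tag count that the peak caller HOMER scales by library size, and it is given here as a percentile of the list. The median percentile was 37.0 for EDL, 38.2 for Quad, 37.0 for Sol and 31.1 for Dia, against 46.6, 46.5, 44.8 and 40.5 for peaks in intron 1. Promoter peaks, by contrast, had medians of 76.3, 81.3, 75.7 and 74.1. Intergenic peaks were close to later-intron peaks, with medians of 35.7, 36.4, 34.6 and 31.1.

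A later-intron peak was less often in the upper 50% of its list than a peak in intron 1, in 4 of 4 lists. The shares were 34% for EDL, 35.5% for Quad, 33.2% for Sol and 23.8% for Dia. The differences from intron 1 were -11.3 percentage points for EDL (Newcombe interval -13.3 to -9.34), -10.5 for Quad (-12.1 to -8.83), -9.95 for Sol (-12.0 to -7.92) and -13.5 for Dia (-16 to -11). An exact two-sided sign-flip permutation test over the 4 lists gave a p of 0.13, the smallest value that 4 lists allow. The lists share many regions, so they are not independent units for this test. Against intergenic peaks the differences were -0.29 points for EDL (-1.79 to 1.22), 0.74 for Quad (-0.52 to 2.0), 0.31 for Sol (-1.22 to 1.86) and -2.55 for Dia (-4.34 to -0.74), with an exact permutation p of 0.875. In lists of 20000 peaks later-intron peaks were lower than intergenic peaks as well, by differences of -3.59 points for EDL, -5.21 for Quad, -3.92 for Sol and -4.19 for Dia.

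The share of later-intron peaks was highest among weak peaks and dropped towards the top of each list. In the lowest 10% of the list it was 28.6% for EDL, 31.2% for Quad, 29.0% for Sol and 28.2% for Dia. In the highest 10% it was 4.20% (3.54% to 4.97%), 3.60% (3.07% to 4.22%), 3.05% (2.48% to 3.75%) and 1.43% (1.01% to 2.02%) in the same order. This drop was not particular to later introns. In EDL the intergenic share went from 49.1% in the lowest bin to 8.47% in the highest, and the intron 1 share from 11.2% to 4.27%. The promoter share there rose from 5.62% to 79.8%. Dia had the lowest later-intron share in every bin, and from percentile 40 upwards its interval lay below those of the other muscles. Between percentiles 60 and 70 later introns held 10.8% of Dia peaks, against 20.9% in EDL, 23.5% in Quad and 18.8% in Sol. The 1000 highest-scored peaks of a list included 14 later-intron peaks for EDL, 16 for Quad, 15 for Sol and 14 for Dia.

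**Figure D1:**
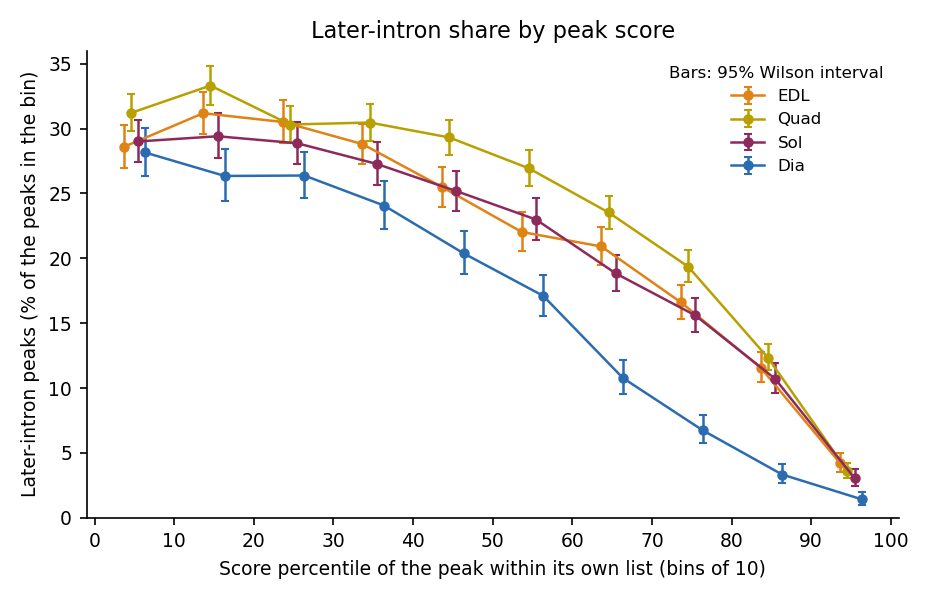
Share of peaks in later introns (y axis, percent of the peaks in the bin) against the score percentile within the list (x axis, bins of 10), 1 line per muscle with 95% Wilson intervals. All 4 lines end between 1.43% and 4.20% in the highest bin, and the Dia interval lies below the others from percentile 40 upwards. The lists differ in length, so equal percentiles are different ranks.

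Those few strong peaks recurred between lists. The top later-intron peak in every muscle lay in intron 4 of 26 of Chl1, a neural cell adhesion gene, 138299 bp from its start, with scores of 61.2 for EDL, 66.7 for Quad, 58.0 for Sol and 62.7 for Dia. Its sequence stood apart from other later-intron regions. It was 33.5% G or C, against a median of 51.0% in the central 200 bases of all later-intron regions, and a stretch of 53 bases occurred in it more than once, as the printed sequence shows. The median longest repeated stretch of a later-intron region was 8 bases, and 155 of 13677 regions (1.13%) had one of 25 bases or more. No list of high-signal genome regions was applied here, and whether the Chl1 signal is of that kind was not tested. Phf19, which encodes a Polycomb-associated protein, held strong peaks in intron 6 of 14 in all 4 lists, with scores between 32.5 in Dia and 40.3 in Quad. Cdk8, the kinase of the Mediator complex, held peaks in intron 2 of 12 with scores of 34.2 in EDL, 33.4 in Quad and 35.5 in Dia. The Quad peak was centred 258 bp from the nearest peak of another list and so counted as a Quad-only peak, although the other 3 lists had a Cdk8 peak in the same intron. Ssc4d, a scavenger receptor gene, held a peak in intron 9 of 10 with scores of 31.0, 31.0, 29.7 and 27.9 in EDL, Quad, Sol and Dia. Its printed sequence was 64.4% G or C and held 3 GC-boxes.

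Later-intron peaks spread over the whole length of their genes. The median peak lay in intron 4 of a transcript with a median of 13 introns in each list. The intron number divided by the number of introns had a median of 0.475 for EDL, 0.476 for Quad, 0.491 for Sol and 0.50 for Dia. Intron 2 alone held 27.0% of them for EDL, 27.1% for Quad, 27.1% for Sol and 27.7% for Dia, and introns beyond the tenth held between 18.7% in Dia and 20.5% in Quad. The last intron of the transcript held 10.6% to 11.4%. The introns concerned were long. Their median length was 13.1 kb for EDL, 13.5 kb for Quad, 13.8 kb for Sol and 13.7 kb for Dia, whereas the median later intron of a gene, with 1 transcript per gene, was 1.26 kb. The medians by muscle count an intron once per peak, and the last counts each intron once. Longer introns have room for more peaks, so the gap is no measure of a preference for long introns. Within the intron, peaks showed no lean to either end, with median positions between 0.498 and 0.514 of its length. Of the peaks, 16.3% to 18.1% were centred within 500 bp of an exon, and the share expected from intron length was not computed. Their distance from the host gene's start had a median of 53.8 kb in Dia to 58.7 kb in Sol.

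Per megabase of intron, later introns held fewer peaks than intron 1. Intron 1 held 13.6 peaks per Mb for EDL, 19.4 for Quad, 12.6 for Sol and 7.95 for Dia. In intron 2 the densities were 11, 15.9, 9.94 and 6.04, and in introns beyond the tenth they were 8.02, 11.9, 7.34 and 4.02. The ratio of later introns to intron 1 was 0.683 for EDL (0.655 to 0.711), 0.695 for Quad (0.672 to 0.719), 0.672 for Sol (0.644 to 0.701) and 0.625 for Dia (0.592 to 0.660).

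This order turned around with distance from the gene's start. Between 20 and 50 kb the ratio was still below 1, from 0.710 in Sol to 0.756 in EDL. At 50 to 100 kb every interval included 1, with ratios of 1.06 for EDL (0.946 to 1.19), 1.03 for Quad (0.941 to 1.14), 1.01 for Sol (0.901 to 1.14) and 1.02 for Dia (0.877 to 1.19). From 100 to 200 kb later introns held more peaks per Mb, by a ratio of 1.89 for EDL (1.55 to 2.30), 1.85 for Quad (1.58 to 2.17), 1.82 for Sol (1.49 to 2.23) and 1.49 for Dia (1.15 to 1.92). Beyond 200 kb the ratio was 2.14, 2.39, 2.47 and 2.0 in the same order. The densities themselves show where the change lay. In EDL later introns held 11.4 peaks per Mb at 20 to 50 kb, 11.5 at 50 to 100 kb and 9.70 at 100 to 200 kb, while intron 1 went from 15.1 to 10.8 and 5.13. Different genes contribute to the 2 kinds of intron at a given distance, and the part of that difference was not tested.

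**Figure D2:**
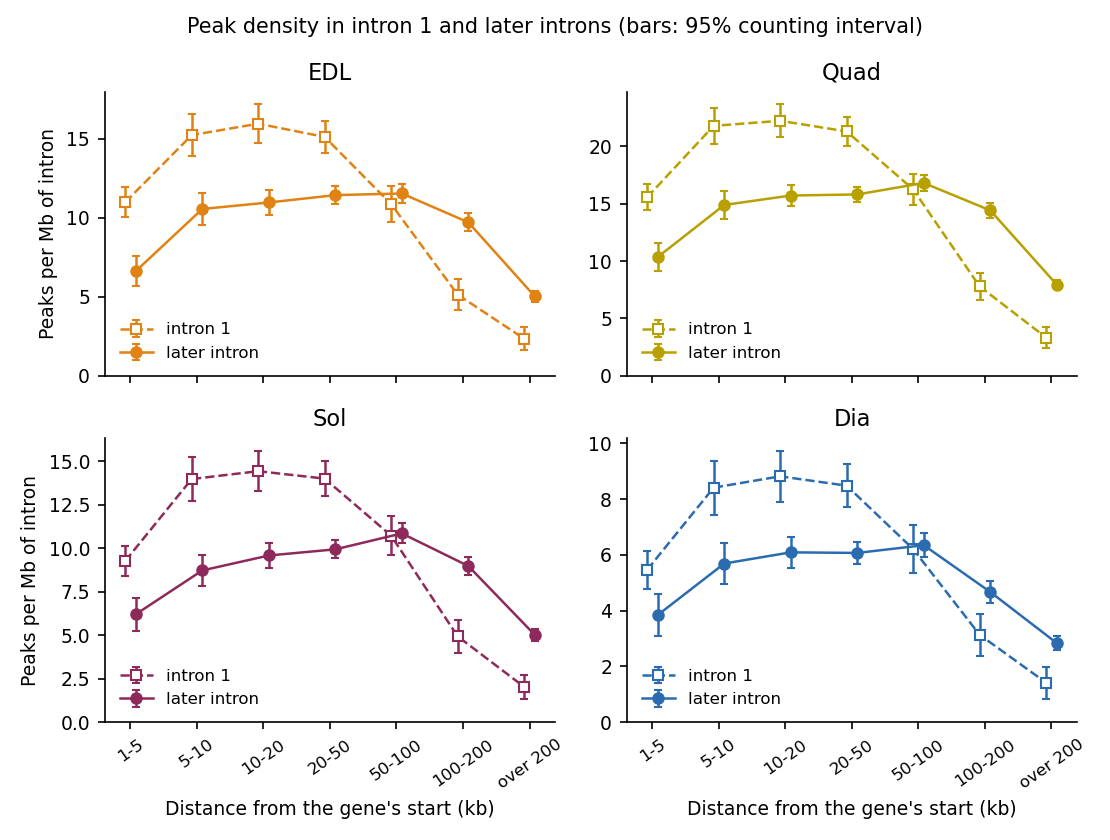
Peaks per Mb of intron (y axis, linear from 0) against distance from the start of the gene in kb (x axis, bins), 1 panel per muscle, for later introns (filled circles, solid line) and intron 1 (open squares, dashed line) with 95% counting intervals. In each panel intron 1 lies above later introns up to 50 kb, the lines meet at 50 to 100 kb, and later introns lie above from 100 kb, as in EDL with 9.70 against 5.13 peaks per Mb at 100 to 200 kb.

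Later-intron regions were less often open in all 4 muscles than regions in intron 1, between genes or at promoters. Overlapping peaks of different lists were joined, which gave 13677 merged regions with a later-intron peak among 53883 in all, and in 98.6% of them every peak was in a later intron. A peak in all 4 lists was found in 1951 of them, 14.3% (13.7% to 14.9%), against 26.9% of all merged regions. The share was 17.5% for intron 1 regions, a difference of -3.26 points (-4.30 to -2.22), and 16.8% for intergenic regions, a difference of -2.53 points (-3.32 to -1.73). For promoter regions it was 66.1%, a difference of -51.8 points (-52.8 to -50.8). A single list held 6958 of the later-intron regions, 50.9%, against 42.6% of all merged regions. The share was 48.1% for intron 1, 50.6% for intergenic and 14.5% for promoter regions. Later introns differed by 2.80 points from intron 1 (1.39 to 4.20) and by 0.28 from intergenic regions (-0.82 to 1.39). With the Dia list left out, a setting chosen after seeing the data, 25.1% of later-intron regions (24.4% to 25.8%) had a peak in each of the other 3 lists, against 27.6% for intron 1, 27.0% for intergenic regions and 70.7% for promoters.

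**Figure D3:**
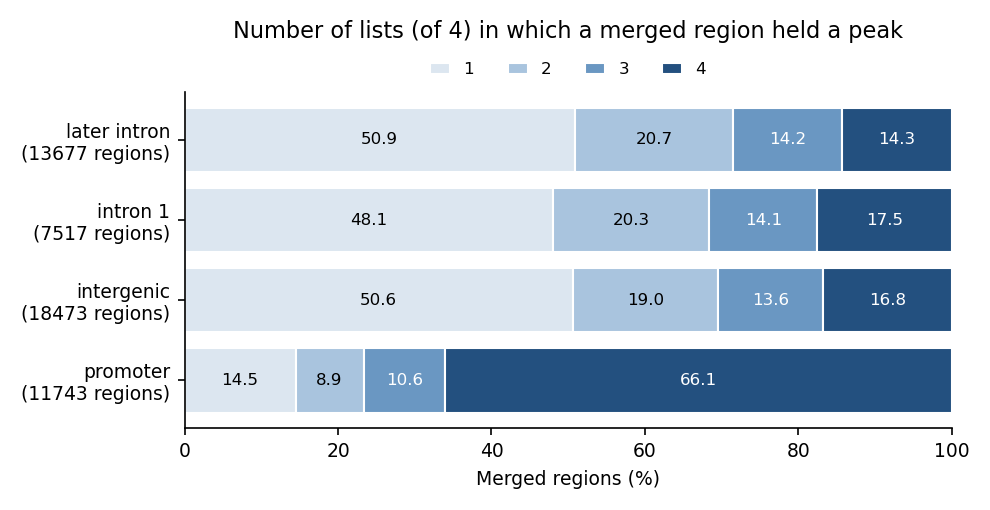
Share of merged regions (x axis, percent) with a peak in 1, 2, 3 or 4 of the lists (light to dark), 1 bar per annotation class with its number of regions. The dark segment is 14.3% for later introns, 17.5% for intron 1, 16.8% for intergenic regions and 66.1% for promoters.

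At equal score, among the stronger peaks, the difference from intron 1 had the other sign. Peaks of each list were split into bands of 20 score percentiles, and the share in regions found in all 4 lists was compared within a band. Between percentiles 60 and 80, 53.7% of EDL later-intron peaks were in such regions, against 49.4% of intron 1 peaks, a difference of 4.30 points (-0.20 to 8.78). In the same band the difference was 3.37 points in Quad (-0.18 to 6.88), 6.39 in Sol (1.73 to 11) and 6.31 in Dia (0.63 to 11.9). Above percentile 80 it was 5.83 points for EDL (0.03 to 11.6), 6.52 for Quad (1.27 to 11.7), 6.30 for Sol (0.51 to 12.1) and 4.39 for Dia (-3.51 to 11.1). In the lowest band the differences lay between -0.07 and 0.42 points, and each interval included 0. Between percentiles 20 and 60 the intervals included 0 in EDL, Quad and Sol, and lay above 0 in Dia. Against intergenic peaks, later-intron peaks of EDL, Quad and Sol were less often in all 4 lists in each band from percentile 20 to 80. The largest such difference was -10.9 points in EDL between percentiles 40 and 60 (-14.2 to -7.55). Dia differed from intergenic peaks in the lowest band alone, where later-intron peaks were more often in all 4 lists by 4.19 points (0.89 to 7.54). Sharing rose with score in each list, from 8.39% in the lowest band to 75.5% in the highest in EDL.

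Of the later-intron peaks, those that overlapped none of another list were 16.5% for EDL (15.7% to 17.4%), 39.1% for Quad (38.2% to 40.1%), 23.7% for Sol (22.6% to 24.8%) and 17.7% for Dia (16.5% to 19.0%). Over all peaks of the list the shares were 12% for EDL, 30.3% for Quad, 16.1% for Sol and 11.5% for Dia. Other peaks outside promoters came closer. In the same order the shares were 15.6%, 37.3%, 20.8% and 15.1% for intron 1 peaks. For intergenic peaks they were 16.6%, 37.3%, 22.8% and 19.1%. The muscle-only later-intron peaks were weak, with median percentiles of 17.1 for EDL, 20.8 for Quad, 16.1 for Sol and 15.0 for Dia. Later-intron peaks in all 4 lists had medians of 60.3, 65.8, 58.6 and 40.5. Few of the muscle-only later-intron peaks were near misses of the overlap rule. A peak of another list was centred within 1 kb of 18.3% of the muscle-only peaks for EDL, 10.2% for Quad, 11.7% for Sol and 12.0% for Dia. In lists of 20000 peaks Dia had the highest share of muscle-only later-intron peaks, 29.6%, followed by Sol at 22.9%, Quad at 19.1% and EDL at 16.6%. Shares of all peaks or of other classes at this length are not given here. Whether this order is particular to later introns was not tested. A missing peak means that the position was not called, not that it was closed.

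Among pairs, EDL and Quad shared the largest part of their later-intron regions, as they did for intron 1 and intergenic regions. In whole lists they shared 44.3% of later-intron, 45.8% of intron 1 and 44.3% of intergenic regions, so that this is no particular feature of later introns. In lists of 20000 peaks these muscles shared 52.6% of the regions that either held (51.1% to 54.0%). EDL and Sol shared 45% (43.6% to 46.4%), Quad and Sol 39.8% (38.5% to 41.2%), Sol and Dia 38.4% (37.0% to 39.7%), EDL and Dia 34.3% (33.1% to 35.7%) and Quad and Dia 32.3% (31.0% to 33.6%). The pairs share lists and are not independent. At this length 542 regions had a peak in exactly EDL and Quad and 269 in exactly Sol and Dia, while the other pairs had 104 to 248 each. With whole lists the order differed. There 1489 regions had a peak in exactly EDL and Quad, 561 in Quad and Sol and 339 in EDL and Sol, all above the 183 of Sol and Dia. No such counts over all merged regions are given here, so whether they are particular to later introns was not tested.

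The strongest regions of exactly EDL and Quad lay at percentiles 86.2 to 92. The Ttn region lay in intron 67 of 191, 175 kb from the start, where Ttn encodes titin, the spring of the sarcomere. Its score was 16.7 in EDL and 14.7 in Quad, and the nearest Sol or Dia peak was centred 1001 bp away. That neighbouring region, in intron 66, had peaks in EDL, Quad and Dia with scores of 13, 10.9 and 7.96. The Gpt2 region, in a gene for the mitochondrial alanine aminotransferase, lay in intron 6 of 11 with scores of 13.6 and 15.2, at 6012 bp from the nearest Sol or Dia peak. The Zbtb16 region lay in intron 3 of 6 with scores of 14.0 in EDL and 14.2 in Quad. The regions of exactly Sol and Dia had lower percentiles, from 58.4 to 79.6, but were drawn from 183 regions, against 1489 for EDL and Quad. The Elmod3 region in intron 9 of 11 scored 11.2 in Sol and 9.06 in Dia, the Ift122 region in intron 16 of 28, in a gene for intraflagellar transport, scored 11.6 and 8.46, and the Ttc7 region in intron 5 of 19 scored 8.79 and 10.3. The Hdac5 region was at percentiles 88 to 91.7 in the 4 lists. This gene encodes a deacetylase known to bind MEF2, and its region in intron 4 of 28 scored 16.5 for EDL, 15.4 for Quad, 15.3 for Sol and 15.3 for Dia.

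The strongest later-intron peaks of a single list, with no peak of another list within 1 kb, were in genes of varied function. In EDL they lay in intron 2 of 2 of Trib1 (percentile 90.5), a pseudokinase gene, in intron 20 of 20 of Atp6v0a1 (80.0), which encodes a proton pump subunit, and in intron 44 of 61 of Itpr1 (78.4), which encodes an inositol trisphosphate receptor. The Quad peaks were in intron 2 of 2 of the noncoding gene Nctc1 (97.8) and in intron 12 of 24 of Anks1 (88.0). The Nctc1 peak, with a score of 25.2, had the highest percentile of these single-list peaks with no peak of another list within 1 kb. The Sol peaks lay in intron 2 of 15 of Gys1 (89.2), the muscle glycogen synthase, and in intron 2 of 12 of Ldb3 (87.1), a Z-disc protein. In Dia they lay in intron 4 of 4 of Msra (70.9), which repairs oxidised methionine, intron 7 of 7 of Dgat2 (68.7), an enzyme of triglyceride synthesis, and intron 2 of 8 of Bcl3 (62.9), a regulator of NF-kB. Dia had the lowest percentiles of the 4 muscles, and also the fewest muscle-only later-intron peaks to draw from, 632 against 3791 in Quad. None of these peaks has a replicate check.

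Later-intron regions were found in 5201 of 20085 genes with 2 or more introns, which is 25.9%. By list, the share of these genes with a later-intron peak was 16.4% for EDL, 21.4% for Quad, 15.9% for Sol and 11.5% for Dia. A single region was found in 2650 of the host genes, while 742 genes with 5 or more held 6141 regions. Host genes had more later-intron sequence, with a median of 37.4 kb against 7.49 kb for genes without a region, and across genes the number of regions and the later-intron length had a Spearman correlation of 0.50, given as a description. Over all genes there were 1.90 regions per 100 kb of later intron.

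The 10 genes with most regions had between 271.5 and 1089 kb of later intron. Tcf4, described with the muscle regulators, tied with the last of them at 24 regions and was placed after it by total score. Pde4d, a cAMP phosphodiesterase, led with 43 regions in 1089 kb of later intron, or 3.95 per 100 kb. EDL had 21 peaks in it, Quad 28, Sol 20 and Dia 10, and 27 of its regions lay in the 707.7 kb of intron 3 of 16. The highest density among the 10 was in Arhgap26, a GTPase-activating protein, with 26 regions at 9.58 per 100 kb, and in Zbtb20, a zinc-finger repressor, with 30 regions at 9.56 per 100 kb. Rad51b, a recombination repair gene, and Msi2, which encodes an RNA-binding protein, held 31 regions each, at 6.05 and 8.33 per 100 kb. Wwox, an oxidoreductase gene, held 29, and the lowest density of the 10, at 3.20 per 100 kb. Camta1, a calmodulin-binding transcription activator, Prkca, a protein kinase C, and Aopep, an aminopeptidase, had 25 regions each, and Kalrn, a guanine nucleotide exchange factor, had 24. Rad51b and Zbtb20 had 9 regions in all 4 lists each, and Arhgap26 had 8. Aopep was the gene of the 10 with more peaks in Sol (15) than in Quad (13).

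Zbtb16 showed the largest excess in EDL and Quad in lists of 20000 peaks, though not in whole lists. The gene encodes a zinc-finger transcription factor known as PLZF. In lists of 20000 peaks it held 14 peaks for EDL, 14 for Quad, 9 for Sol and 6 for Dia, a difference of 6.5 between the mean of EDL and Quad and the mean of Sol and Dia, and whole lists gave the same counts. In whole lists the excess was larger in Wwox, with 13, 21, 7 and 6 peaks for the muscles in that order, Prkca with 13, 20, 10 and 3, Pde4d with 21, 28, 20 and 10, and Msi2 with 16, 24, 14 and 7, among other genes. Its 16 regions lay 9.46 kb to 161 kb from the start in introns 2, 3 and 4, at 9.20 per 100 kb. They were strong peaks, with median percentiles of 83.7 for EDL, 83.0 for Quad, 79.9 for Sol and 73.7 for Dia. Of the 16 regions, 5 had a peak in all 4 lists and 4 in exactly EDL and Quad. Intron 3 held 4 regions, and its region 112 kb from the start was the strongest in Quad, Sol and Dia, with scores of 17 for EDL, 22.2 for Quad, 16.8 for Sol and 18.6 for Dia. The neighbour 95.5 kb from the start, whose sequence is printed, had no peak in Sol or Dia.

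**Figure D4:**
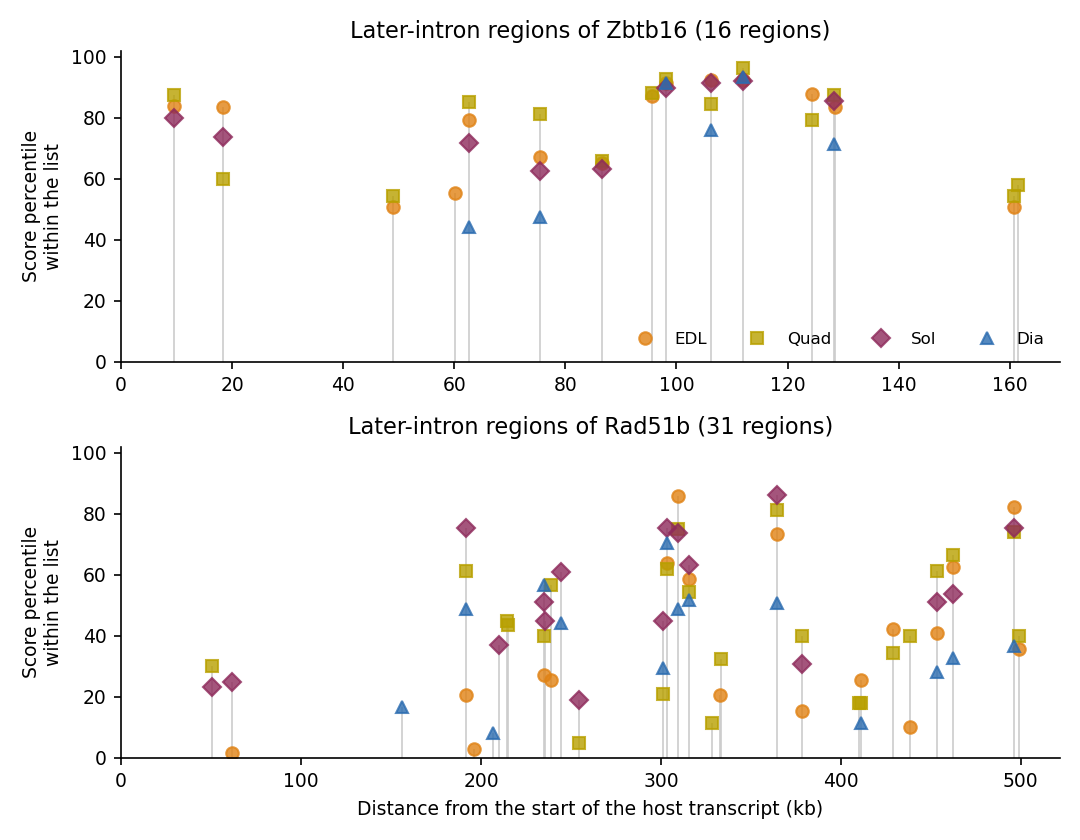
Score percentile within the list (y axis, 0 to 100) of every later-intron region of Zbtb16 (upper panel, 16 regions) and Rad51b (lower panel, 31 regions) against distance from the start of the host transcript in kb (x axis), 1 symbol per muscle, with grey lines down to the axis. The Zbtb16 regions with peaks in all 4 lists lie between 62.6 and 112 kb, and the Rad51b regions lie from 50.6 to 499 kb.

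Other genes on the EDL and Quad side were Pitpnm2, with 8, 8, 3 and 1 peaks in EDL, Quad, Sol and Dia in lists of 20000, Pde4d with 17, 9, 8 and 9, Msi2 with 11, 13, 8 and 7, and Cradd with 10, 13, 6 and 8. Each of the 9 Pitpnm2 regions lay in intron 2 of 24, and the 22 Cradd regions lay in intron 2 of 2. The opposite direction was led by Rad51b, with 9 peaks for EDL and for Quad and 14 for Sol and for Dia. It was followed by Nsmce2 with 2, 1, 6 and 4, Aopep with 5, 7, 13 and 5, Tcf4 with 3, 4, 9 and 4, and Prkce with 3, 1, 5 and 5. Tcf4 encodes an E-box binding protein, and Prkce a protein kinase C. Whole lists changed this side. There Rad51b had 18, 23, 17 and 14 peaks and Tcf4 10, 15, 15 and 4, so that for both genes the mean of EDL and Quad was the higher one. The same held for Nsmce2, with 5, 10, 8 and 5, and for Prkce, with 7, 10, 7 and 6. Aopep, with 6, 13, 15 and 5, was still higher in Sol and Dia on average. These genes were ranked by the difference itself, and the counts describe 1 library each.

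Gene lists for muscle and for other cells of the tissue were read against the 25.9% of all genes with 2 or more introns and against 1.90 regions per 100 kb. The lists were chosen with earlier results of these data known. Genes of the sarcomere and Z-disc had a region in 20 of 40 cases, 71 regions in all, at 4.56 per 100 kb. Cap2, an actin regulator, had 9 regions with peaks in EDL (3), Quad (5) and Sol (4) and none in Dia. The Z-disc adaptor Pdlim5 had 8 regions, and nebulin (Neb), the ruler of the thin filament, had 7 with none in Dia. Calcium handling and excitation genes had a region in 25 of 30 cases and 108 regions at 3.09 per 100 kb. The list was led by Itpr1 with 15 regions, Camk2d, a calmodulin-dependent kinase, with 14, and the calcineurin regulator Rcan2 with 8. For the dystrophin complex and basement membrane it was 21 of 24 genes with 77 regions, but only 1.5 per 100 kb, led by the membrane repair gene Dysf with 12 regions. Col4a2, a basement membrane collagen, had 11 and Lama2, a laminin chain, had 7 with none in Dia. Counts by gene list are from whole lists, of which the Dia list was the shortest, with 21582 peaks against 40337 in Quad.

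Muscle transcription and signalling regulators had a region in 36 of 45 cases and held 238 regions, the most of any list, at 4.30 per 100 kb. Tcf4 had 24, Sox6, a repressor of slow-fibre genes, had 18, and Zbtb16 had 16. The 18 Sox6 regions were mostly weak, though the strongest reached percentile 91.6 in Sol, with median percentiles of 18.8 for EDL, 16.5 for Quad, 12.2 for Sol and 13.2 for Dia. Splicing regulators had a region in 13 of 16 cases, with 81 regions at 3.87 per 100 kb. Celf2 had 17 regions with 6 peaks for EDL, 13 for Quad, 4 for Sol and none for Dia, Mbnl2 had 12, of which 4 were in all 4 lists, and Rbfox2 had 11. Genes of glucose, glycogen and lipid metabolism had a region in 26 of 41 cases, with 99 regions at 4.60 per 100 kb, the highest density of the lists. Tbc1d1, which controls glucose transporter traffic, had 15 and the IGF1 receptor gene Igf1r had 13, with 5 in all 4 lists each, and Prkag2, a subunit of AMP-activated kinase, had 9.

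Circadian clock and glucocorticoid response genes had a region in 10 of 21 cases and 35 regions at 4.21 per 100 kb. Tsc22d3, a glucocorticoid-induced gene on chromosome X, had 7 regions, each in intron 2 of 3 and none in all 4 lists. Fkbp5, another glucocorticoid target, had 6 and the clock receptor gene Rora had 4. Neuromuscular junction genes had the fewest, with 6 of 17 genes and 13 regions at 1.11 per 100 kb. Of these, 5 were in Musk, the receptor kinase of the synapse, 4 in its activator Dok7, and 1 in Colq, which was found in all 4 lists with scores at percentiles 78.8 for EDL, 73.3 for Quad, 53.7 for Sol and 29.6 for Dia.

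Genes of other cell types held later-intron regions too. Endothelial genes had a region in 14 of 21 cases, with 53 regions at 3.13 per 100 kb, led by the VEGF receptor gene Flt1 with 13, the transcription factor gene Erg with 8 and Mecom with 7. Fibroblast and adipogenic genes had 14 of 23 and 45 regions at 3.04 per 100 kb, with Fbn1, which encodes fibrillin, at 11, Ebf1 at 6 and Col15a1 at 4. The smooth muscle and pericyte list had 10 of 14 and 20 regions at 2.75 per 100 kb, with Mylk, a myosin kinase, at 5 and Myh11 and Abcc9 at 3 each. Leukocyte genes had 11 of 20 and 24 regions at 1.45 per 100 kb, with Runx1 at 5 and Dock2 and Inpp5d at 4 each, and none of these 13 was in all 4 lists. Several of these genes are also used in muscle fibres, and in whole muscle the cells that carried the open regions cannot be told apart.

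Sequence in the 200 bp at the centre of later-intron regions differed from windows of the same length 2 kb downstream. Downstream here means at higher genome coordinates, whatever the strand of the host gene. E-box letters were found in 22.8% of later-intron windows (22.1% to 23.5%) against 10.3% of the downstream windows, a difference of 12.5 points (11.6 to 13.4), and in 20.4% of windows at all merged regions. MEF2 letters were found in 5.38% (5.02% to 5.77%) against 1.62%, a difference of 3.77 points (3.34 to 4.20), and in 3.91% of all regions. For AP-1 the shares were 11.2% and 5.47%, with 9.56% of all regions. NFAT letters were in 20.9% against 17.2%, with 18.2% of all regions. For NR they were 6.19% and 3.43%, with 4.87% of all regions, and for TEAD 13.6% and 10.3%, with 12.2%. The median G and C content was 51.0% at the centres and 46.0% downstream, and its part in these differences was not tested. Windows that were at least 50% repeat-masked made up 2.30% at the centres and 16.4% downstream, a difference of -14.1 points (-14.8 to -13.5).

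CTCF and the GC-box separated later introns from intron 1. CTCF, the protein that anchors chromatin loops, had its letters in 3.19% of later-intron windows (2.91% to 3.50%), 0.161% downstream and 1.42% of intron 1 windows, so that later introns exceeded intron 1 by 1.76 points (1.36 to 2.16). Over all regions the share was 2.54%, and among intergenic regions it was 3.37%. GC-box letters, typical of promoters, went the other way, with 6.90% in later introns and 14.3% in intron 1, a difference of -7.43 points (-8.34 to -6.54), 21.2% of all regions and 61.1% of promoter regions. The other motifs differed less. E-box, AP-1, MEF2 and TEAD had intervals of the difference from intron 1 that included 0, from -0.09 points for TEAD (-1.06 to 0.87) to 0.59 for MEF2 (-0.03 to 1.19). NFAT was higher in later introns by 1.59 points (0.46 to 2.71) and NR by 1.01 (0.35 to 1.64).

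Later-intron regions open in all 4 muscles held MEF2, E-box, AP-1, NFAT and GC-box letters more often than those of 1 muscle. MEF2 letters were in 4.04% of the regions of 1 list, 6.40% of those of 2, 6.85% of those of 3 and 7.23% of those of 4, and regions of 4 lists exceeded those of 1 by 3.19 points (2.02 to 4.50). The E-box went from 20.4% to 26.6%, a difference of 6.13 points (3.99 to 8.34), AP-1 from 10.6% to 13.2% (2.63 points, 1.02 to 4.36), NFAT from 20.7% to 22.8% (2.16 points, 0.11 to 4.29) and the GC-box from 5.22% to 11.4% (6.21 points, 4.77 to 7.78). CTCF letters stood at 2.92% in both, a difference of 0.00 points (-0.78 to 0.93), and the NR and TEAD differences had intervals that included 0. Whether later introns differ from intron 1 in these changes was not tested. GC-box letters went in intron 1 regions from 10.8% to 25.8%, and over all regions from 10.4% to 44.1%. The E-box went from 19.5% to 22.9%, MEF2 from 3.54% to 5.17% and AP-1 from 10.2% to 11.4% in intron 1, whereas NFAT went from 20.2% to 16.6% there. Over all merged regions these 4 motifs were less frequent in regions of 4 lists than of 1. The E-box went from 19.9% to 17.3%, MEF2 from 3.46% to 3.02%, AP-1 from 10.3% to 7.41% and NFAT from 19.6% to 13.8%. Between muscles, MEF2 letters were in 1.90% of Dia-only regions (1.09% to 3.29%), 3.51% of Quad-only (2.97% to 4.14%), 4.56% of EDL-only (3.48% to 5.96%) and 5.98% of Sol-only regions (4.86% to 7.32%). Dia-only regions also had the lowest E-box share, 14.9% (12.3% to 17.9%), against 20.4% to 22.7% in the other muscles. NFAT letters were most frequent in Sol-only regions, at 24.9% (22.7% to 27.2%), against 19.3% in EDL-only, 19.4% in Quad-only and 21.2% in Dia-only regions. CTCF letters were in 5.38% of EDL-only regions (4.20% to 6.88%) and 1.67% of Sol-only regions (1.12% to 2.47%). Motif shares in muscle-only regions of other classes are not given here. Whether these differences between muscles are particular to later introns was not tested. Regions of more lists also had higher scores, a median G and C content of 52.5% against 50%, and fewer masked windows, 1.03% against 3.12%, and the part of these in the motif shares was not tested.

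**Figure D5:**
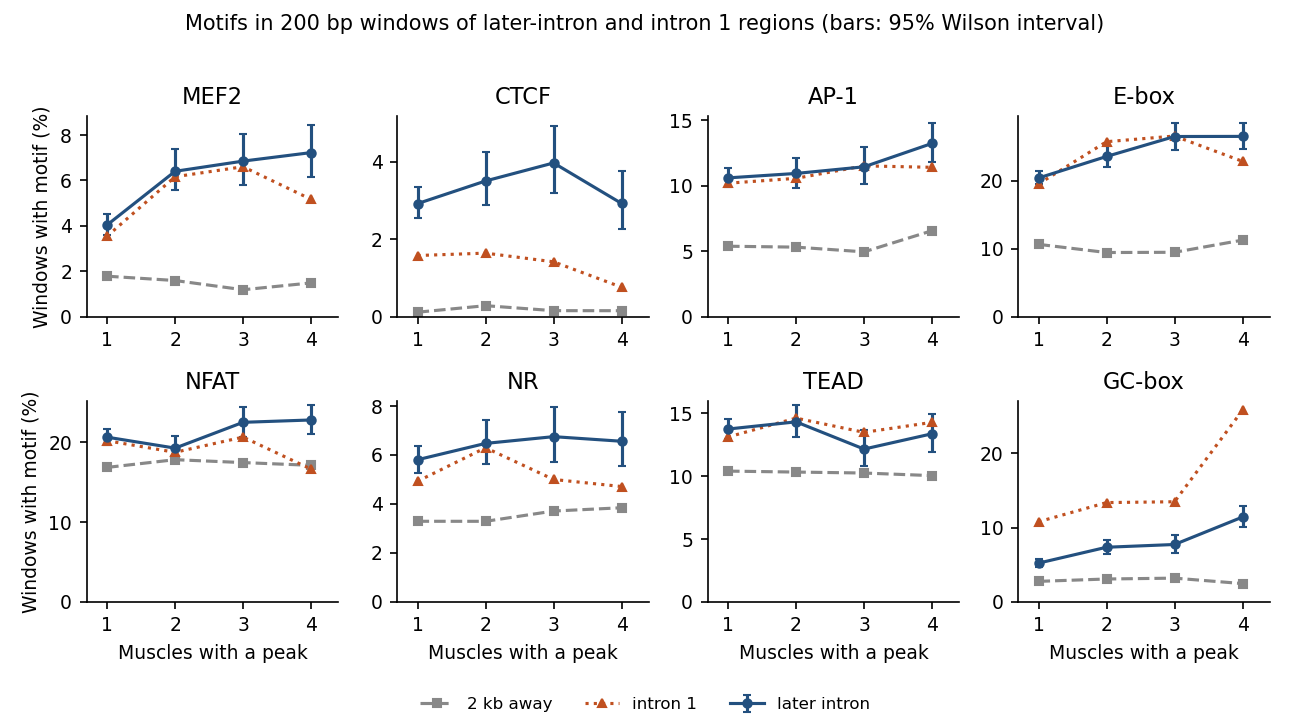
Share of 200 bp windows with the letters of each motif (y axis, percent, from 0) against the number of muscles with a peak (x axis), 1 panel per motif. Circles are later-intron regions (95% Wilson intervals), squares windows 2 kb away at higher genome coordinates, and triangles intron 1 regions. MEF2 rises from 4.04% to 7.23% and the E-box from 20.4% to 26.6% with sharing, while CTCF is at 2.92% for regions of 1 and of 4 lists.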

How the data were processed

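ATAC-seq libraries of EDL, Quad, Sol and Dia, 1 pooled library each, were analysed from the deposited peak lists. The authors aligned reads to mm10 with Bowtie2 and called and annotated peaks with HOMER in each library separately. The deposited score is a count of tags in the peak, adjusted to library size by HOMER, and the deposited focus ratio is a fraction between 0 and 1 per peak, which was not reported here. Per the study's methods, tag directories kept at most 1 read per start position, which removes duplicates. Whether reads were shifted for the Tn5 cut site is not given in the sources used here.

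Members were peaks whose annotation began with intron and did not name intron 1. They and the gene lists, motifs and rules were chosen with earlier results of these data known. Host genes came from the transcript named in the annotation (RefSeq, GRCm38.p6, the assembly of mm10), and densities used 1 transcript per gene on autosomes and X, which placed 97.7% of intron peaks. Peaks were joined when they overlapped by at least 1 bp. Shares carry 95% Wilson intervals, differences Newcombe intervals and densities Poisson intervals. Motifs were searched in 200 bp windows with pysam 0.24.0 and Python 3.11.15. Functions were tested on simulated data.

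Genes were named as the 10 hosts with most regions, the 3 members of each list with most, the 3 highest-scored peaks of each muscle overall and in no other list, the 3 regions of highest mean percentile in EDL and Quad, in Sol and Dia and in all 4 lists, and, in each direction, the 5 genes whose mean peak number differed most between EDL with Quad and Sol with Dia. Some peaks that this rule names are not reported here. Alternatives were equal list lengths, autosomes and X, other overlap rules, not counting peaks near other starts as later-intron, the window and the nearest gene.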

Additional observations from a re-analysis of the deposited data

How the results depend on the processing

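Of 90 recomputed values, 57 stayed inside the counting interval of the reported value, or within 1.5 times for counts of genes. Lists of 20000 peaks gave later-intron shares of 17.9% for EDL, 17.1% for Quad, 17.7% for Sol and 15.6% for Dia, median percentiles of 35.2, 32.7, 34.5 and 28.9, muscle-only shares of 19.1% in Quad and 29.6% in Dia, and 18.5% of regions in all 4 lists. In another setting, later-intron peaks near another start site were no longer counted as later-intron but stayed in the list total, so the share could only fall. The later-intron shares were then 20.7% for EDL, 22.8% for Quad, 19.9% for Sol and 15.6% for Dia. At 50% reciprocal overlap the muscle-only shares were 23.9% for EDL, 45.6% for Quad, 29.5% for Sol and 24.3% for Dia, and 10.4% of regions were in all 4 lists. Counting peaks within 500 bp as shared gave 14.0%, 36%, 21.5% and 16%, and 16% of regions. In each of these settings the share in all 4 lists stayed lower for later introns than for intron 1. Regions as called, in place of 200 bp windows, held motif letters in 5.84% for MEF2, 12.4% for AP-1, 25.7% for the E-box, 24.2% for NFAT, 7.25% for NR, 15.9% for TEAD and 7.93% for the GC-box. The planned removal of peaks with a repeat in the detailed annotation was not run, since that column held no values. In its place, a setting for windows at least 50% masked was chosen after seeing the data. Later-intron peaks in such windows were no longer counted as later-intron but stayed in the list total. For motif shares these windows were left out. The setting moved the Quad share to 23.5% and no other value. No value moved with autosomes and X alone, and the nearest gene in place of the host gave 2210 to 4257 genes per list.

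No paired analysis was possible because each muscle had 1 library. The tag counts behind the lowest peaks, 25 in Quad to 36 in Dia, set what each list could show. A region missing from a list may lie below its threshold, and no difference between muscles has an estimate of the spread between animals.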
